A study of Mus musculus with 8 samples.

Results

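The complement genes C3, C4b, Cfb, C1ra, C1s1, C2 and Serping1 were followed over 8 arrays of mouse embryonic fibroblasts (MEFs). The members are a list of 7 symbols, and each was read from the probe set with the highest mean among those annotated to that symbol only. Of the 7, 6 were measured among the 22180 genes named in this way, and C3 was not matched and is not analysed here. All cells were labelled as primary MEFs that lack STING, the adaptor protein that passes the signal of cytosolic DNA on to interferon and NF-kB responses. Into these cells went either pBabe with no insert (vector), hSTING, which is human STING, or its variant N154S or R284S. N154S is linked to the disease SAVI in the design text. Each construct had 1 array of control cells and 1 array of cells treated with double-stranded DNA (dsDNA) and Lipofectamine 2000 for 9 h. The labels do not say whether controls received the reagent alone, and each construct is a single cell population, so a difference between lines includes whatever else differs between the populations.

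Complement is a cascade of secreted proteases and their substrates that marks targets for removal. In the classical pathway, the protease C1r activates C1s, which cuts C4 and C2 to form the enzyme that splits C3. In the alternative pathway factor B, encoded by Cfb, takes the place that C2 has in the classical one, and the C1 inhibitor, encoded by Serping1, blocks C1r, C1s and the lectin pathway proteases. The liver makes most of the circulating proteins, but fibroblasts and macrophages also make several of them, and interferons and inflammatory cytokines are known to raise Cfb, C2, C4 and Serping1 in many cell types.

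Values are deposited log2 array signals, and differences are differences of log2 signals. The median of the named genes lay between 4.42 and 4.47 on the 8 arrays and is used here as a mark for dim signals, since log2 signals of an array lack a real zero. Where the dimmer of 2 signals lay below it, a fold is given as "at least", against that median. A gene counts as different between 2 arrays where the log2 difference is 1 or more, which is 2-fold, and the brighter signal is at or above its array's median. There were no replicates, so such differences have no error and no test. The fitted differences come from limma, with construct and treatment as additive terms over all 8 arrays and Benjamini-Hochberg adjustment over all 22180 genes. Their standard error (SE) reflects how unevenly the treatment acted in the different lines together with noise, not the spread between cultures. The endogenous Sting1 probe set read between 3.68 and 4.22 on all arrays, but it is not stated which part of the gene was deleted, so it does not check the labels. All 8 fibroblast markers were above the median on all 8 arrays. Of 7 macrophage markers, Cd68 and Cd14 were above it on all 8 arrays and Ptprc, Adgre1 and Fcgr1 below it on all 8. On all 8 arrays, 5 of 6 hepatocyte, 3 of 5 endothelial and 2 of 4 epithelial markers were below it, and 1 epithelial marker was above it.

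**Figure D1:**
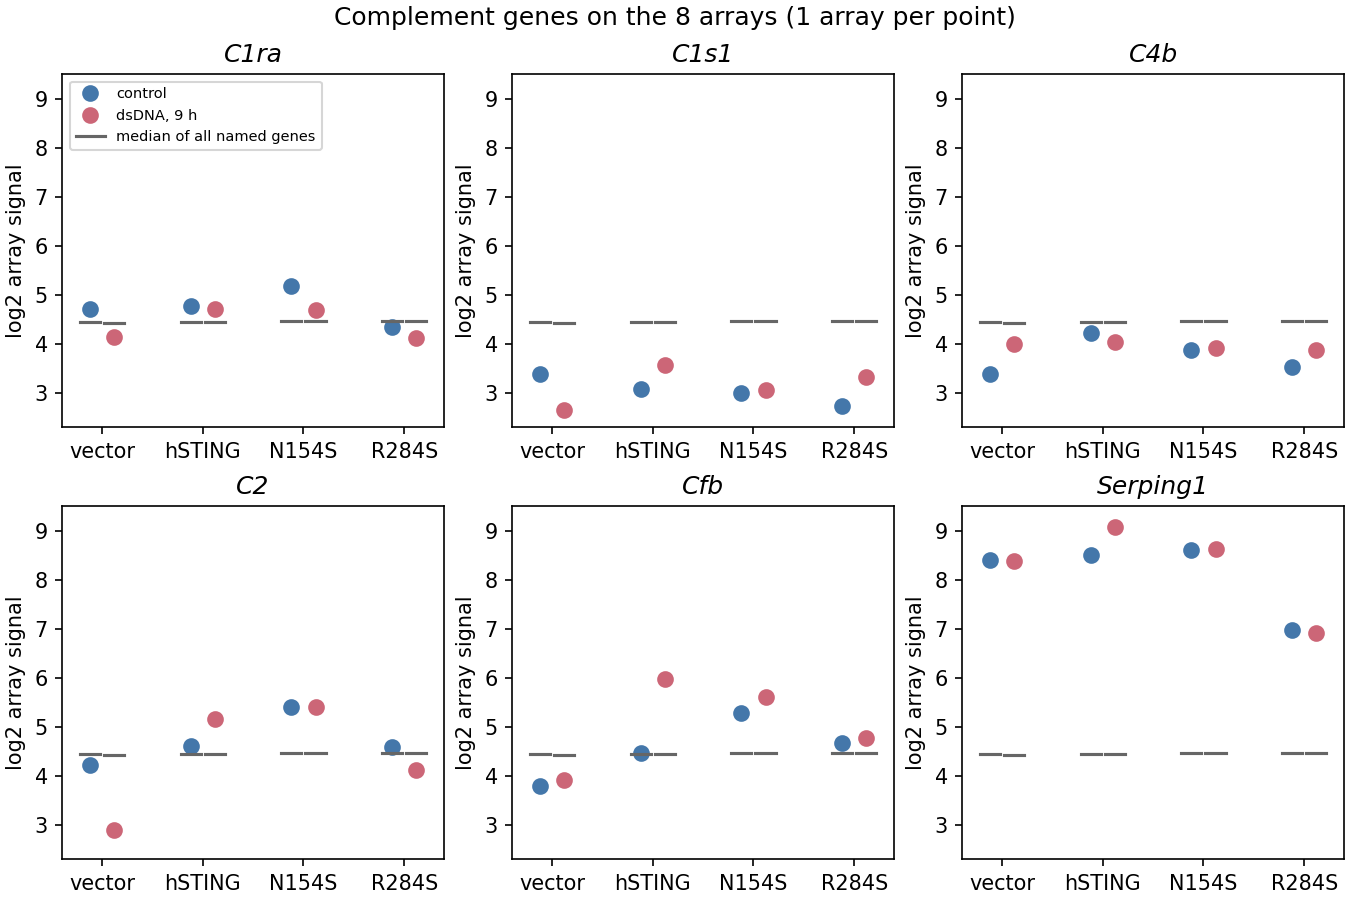
Log2 array signal of the 6 measured complement genes (y axis) in each line (x axis), with 1 point per array, control in blue and dsDNA in red. The grey bars mark each array's median over named genes. Serping1 sits between 8.38 and 9.07 in the other lines and at 6.97 and 6.91 in R284S cells, while C1s1 and C4b lie below the bars on all 8 arrays.

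The lines of STING-expressing cells differed from vector cells in opposite ways across these genes. Cfb and C2 had higher signals in N154S cells and, after dsDNA, in hSTING cells, and Serping1 had lower signals in R284S cells under both treatments. C4b and C1s1 were too dim to be ordered. The plot of signals on the 8 arrays shows these patterns gene by gene.

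Cfb encodes factor B, the serine protease of the alternative pathway convertase. Its control signals were 3.79 in vector, 4.47 in hSTING, 5.27 in N154S and 4.67 in R284S cells. With dsDNA they were 3.91, 5.97, 5.60 and 4.77 in the same order. Both vector arrays were thus the lowest and lay below the median, and the other 6 arrays were at or above it. From the highest to the lowest, the order was hSTING with dsDNA, N154S with dsDNA, N154S control, R284S with dsDNA, R284S control and hSTING control, and then both vector arrays, which have no order below the median. Of the steps in this order, 2 were larger than the residual SD of the gene in the fit, 0.471: that from N154S control to R284S with dsDNA and that from hSTING control to vector with dsDNA.

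In control cells Cfb was at least 1.765-fold higher in N154S than in vector cells, with a difference of 1.48. In hSTING and R284S control cells the differences from vector cells were 0.68 and 0.88. With dsDNA, hSTING cells read 2.06 and N154S cells 1.69 above vector cells, at least 2.928-fold and at least 2.266-fold, and R284S cells 0.86 above.

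Between the dsDNA and the control array of a line, Cfb differed most in hSTING cells, with 1 array of each kind. Cfb was 2.828-fold higher after dsDNA in hSTING cells, a difference of 1.5, against 0.33 in N154S, 0.10 in R284S cells, and both vector signals were below the median. Of the 6 complement genes, Cfb in hSTING cells was the only 1 counted as different between the 2 arrays of a line. Of all named genes, 2.51% differed 2-fold either way in the hSTING line, 0.487% in the N154S, 0.0676% in the R284S and 0.185% in the vector line.

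C2, the classical pathway protease that is cut by C1s, is a close relative of factor B. Its control signals were 4.21 in vector, 4.60 in hSTING, 5.41 in N154S and 4.58 in R284S cells, and with dsDNA 2.89, 5.16, 5.40 and 4.12. Both N154S arrays were the highest, and both vector arrays and R284S with dsDNA were below the median. C2 was at least 1.945-fold higher in N154S than in vector control cells, a difference of 1.20, while hSTING and R284S control cells differed from vector cells by 0.39 and 0.37. With dsDNA the differences from vector cells were 2.27 in hSTING and 2.51 in N154S cells, at least 1.67-fold and at least 1.972-fold. R284S and vector cells with dsDNA were both below the median.

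The wide gaps with dsDNA rest in part on the low vector signal. Both vector signals of C2, 4.21 without and 2.89 with dsDNA, were below the median, so no order or fold is given between them. In hSTING cells C2 was 1.474-fold higher after dsDNA, in N154S cells it read 0.01 lower and in R284S cells 0.46 lower.

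In control cells, Cfb and C2 were thus the 2 of 6 complement genes counted as higher in N154S than in vector cells, where 1.01% of named genes were. Both counts rest on a vector signal below the median, and both bounds given above are under 2-fold. In hSTING control cells 0 of 6 were counted as higher, against 0.415% of named genes, and in R284S control cells 0 of 6 were, against 1.15%. The median difference of the 6 genes from vector cells was 0.25 in hSTING, 0.49 in N154S and -0.12 in R284S control cells, beside medians of all named genes of -0.01, 0.0 and 0.0. These comparisons share the vector control array. The 6 genes include C4b and C1s1, whose signals were below the array median on every array. The N154S and R284S medians lay between the values of C1ra and C4b, so they rest in part on a dim gene. With dsDNA, Cfb and C2 were again the 2 of 6 genes counted as higher than in vector cells, in both hSTING and N154S cells, where 2.16% and 1.57% of named genes were. Between N154S and hSTING cells with dsDNA 0 of 6 genes were counted as different, against 0.735% of named genes either way.

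**Figure D2:**
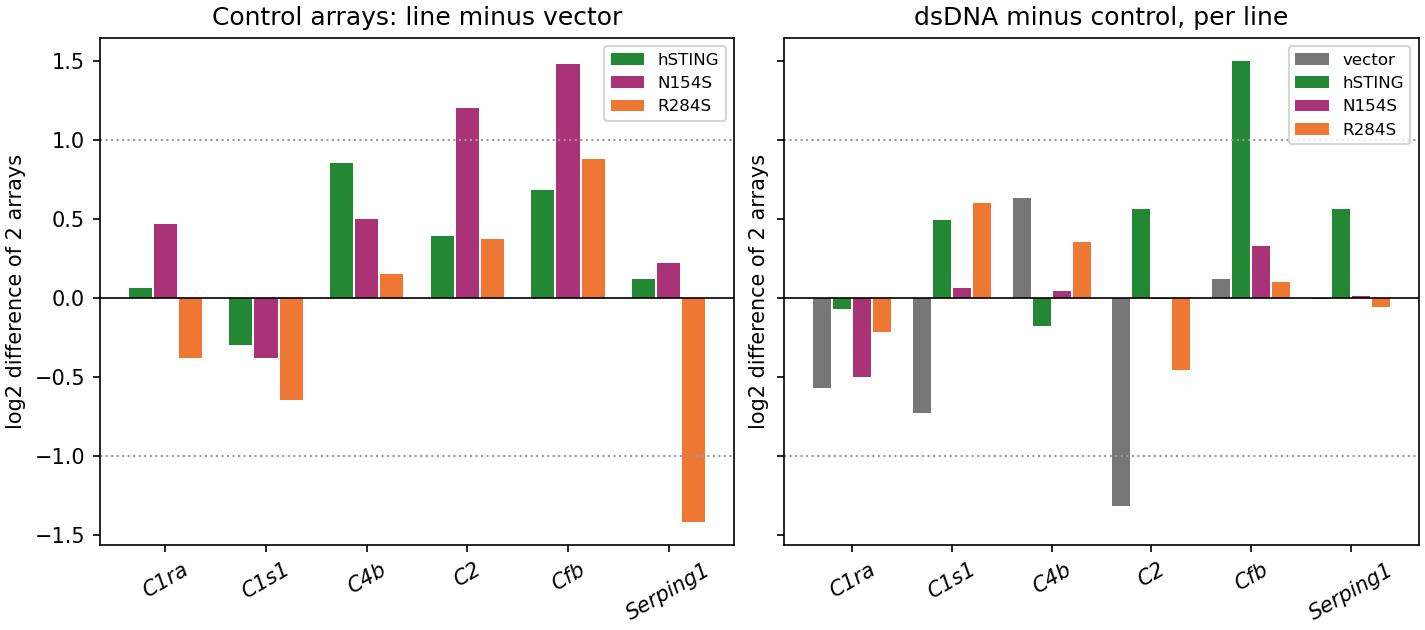
Log2 differences of 2 arrays for the 6 complement genes (x axis), as each STING line minus vector among control arrays (left) and as dsDNA minus control within each line (right). Bars are single differences without error and dotted lines mark 2-fold: Cfb and C2 in N154S cells reach 1.48 and 1.20, Serping1 in R284S cells reaches -1.42, and Cfb reaches 1.5 with dsDNA in hSTING cells.

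Over both treatments, the fit gave Cfb a difference of 1.37 (SE 0.33) in hSTING against vector cells, with a limma adjusted p of 0.391, and C2 one of 1.33 (SE 0.38, adjusted p = 0.474). In N154S against vector cells C2 was at 1.85 (SE 0.38) and Cfb at 1.58 (SE 0.33), both with a limma adjusted p of 0.0811. Both vector arrays were below the median for each gene. With them set to it, the N154S differences were 0.97 for C2 and 1.0 for Cfb, and the hSTING differences 0.44 for C2 and 0.78 for Cfb. Of the 6 complement genes, 0 passed 0.05 in either comparison, in which 0.0992% and 1.32% of named genes passed in limma. At an unadjusted p under 0.05, limma gave 2 of the 6 genes for hSTING and 3 for N154S, and 9.28% and 14.9% of named genes. Without the hSTING pair of arrays, both Cfb (adjusted p = 0.00385) and C2 (adjusted p = 0.0377) passed in limma for N154S against vector. Among genes of at least median mean signal, Cfb passed in limma (adjusted p = 0.04996) and C2 did not.

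In R284S against vector cells Cfb was at 0.87 (SE 0.33, limma adjusted p = 0.292) and C2 at 0.80 (SE 0.38, limma adjusted p = 0.411). With signals below their array's median set to it, these differences were 0.28 for Cfb and 0.08 for C2. For Cfb that applied to both vector arrays, and for C2 also to R284S with dsDNA. Of 7 alternatives for Cfb in this comparison, 1 passed, that without the hSTING pair of arrays (limma adjusted p = 0.023). The highest limma adjusted p among them was 0.42. With dsDNA, R284S cells read 2.297-fold lower than hSTING cells for Cfb and at least 1.625-fold lower for C2. With Serping1, these were the 3 of 6 complement genes counted as lower in this comparison, where 1.74% of named genes were. Between R284S and N154S cells with dsDNA 2 of 6 were counted as lower, C2 at least 1.919-fold and Serping1, where 0.6% of named genes were. Over both treatments the R284S differences from hSTING cells were -0.50 (SE 0.33) and -0.53 (SE 0.38), with limma adjusted p values of 0.56 and 0.596.

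Serping1 encodes the C1 inhibitor, the serpin that inactivates C1r and C1s. Its control signals were 8.39 in vector, 8.51 in hSTING, 8.61 in N154S and 6.97 in R284S cells, and with dsDNA 8.38, 9.07, 8.62 and 6.91. Both R284S arrays were below all 6 others and well above the median, so the fold was measured on both sides. Between vector with dsDNA and N154S with dsDNA, the 5 arrays in this stretch followed each other in steps smaller than the gene's residual SD of 0.206. The hSTING array with dsDNA stood above them and the R284S arrays below them by more than that SD.

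In control cells Serping1 was 2.676-fold lower in R284S than in vector cells, 2.908-fold lower than in hSTING and 3.117-fold lower than in N154S cells. Counted from the lowest of all 22180 differences, these ranked 72, 31 and 20. With dsDNA it was 2.77-fold, 4.469-fold and 3.272-fold lower in the same order. Against vector cells with dsDNA it was the 1 of 6 genes counted as lower, where 0.848% of named genes were. It was also the 1 of 6 complement genes counted as lower in R284S control cells in each comparison. Of named genes, 0.721% were counted as lower than in vector, 0.482% than in hSTING and 0.302% than in N154S cells.

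Serping1 fell in R284S against vector cells over both treatments, at -1.45 (SE 0.18, limma adjusted p = 0.0132), and against hSTING cells, at -1.85 (SE 0.18, limma adjusted p = 0.00954). Against N154S cells it was at -1.68 (SE 0.18) and did not pass (limma adjusted p = 0.0895). It was the 1 of 6 complement genes that passed in each of the first 2 comparisons, in which 1.02% and 0.442% of named genes passed as lower. Between R284S and N154S cells 0 of 6 passed in limma, and 0.00902% of named genes passed either way. At an unadjusted p under 0.05, limma gave 3 of the 6 and 7.07% of named genes. Without the N154S pair of arrays the difference from vector cells was -1.45 with a limma adjusted p of 0.0521, which did not pass.

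Against vector cells, Serping1 was at 0.23 (SE 0.18) in N154S over both treatments with a limma adjusted p of 0.606, and its differences in control cells were 0.22 in N154S and 0.12 in hSTING. After dsDNA it was 1.474-fold higher in hSTING cells, a difference of 0.56, and it differed by 0.01, -0.06 and -0.01 in N154S, R284S and vector cells.

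**Figure D3:**
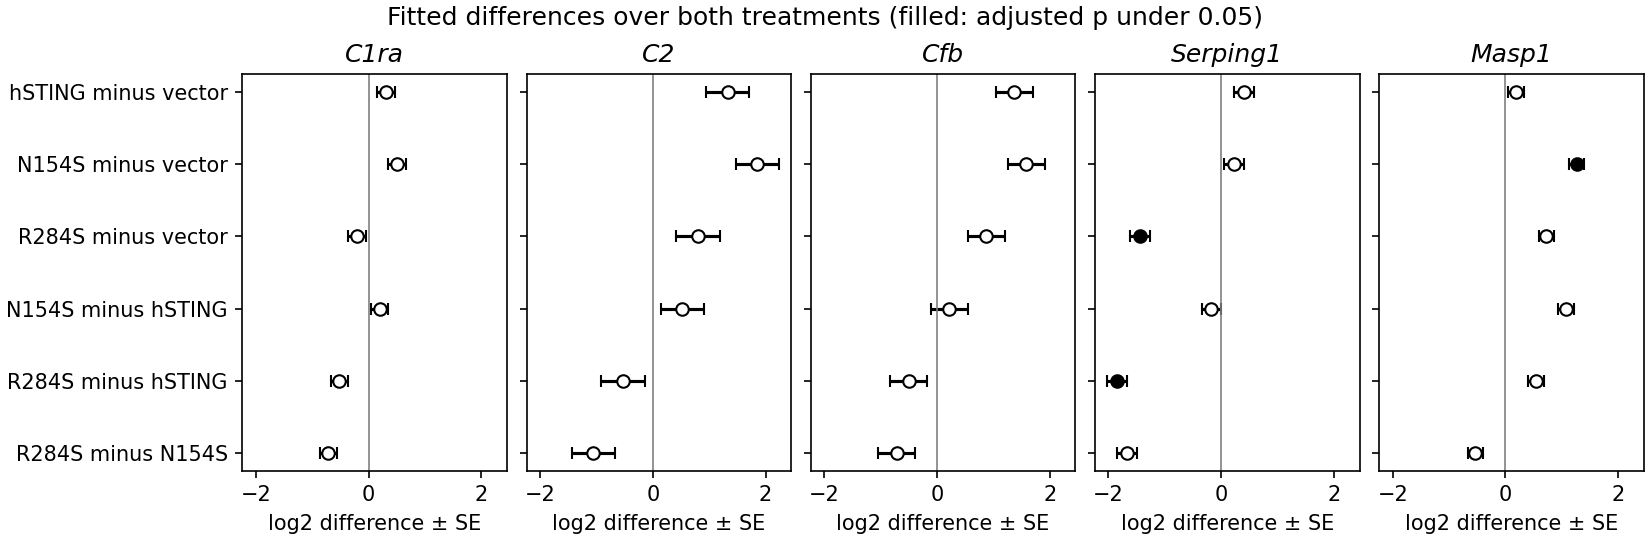
Fitted log2 differences between lines over both treatments (x axis, mean and SE from limma) for C1ra, C2, Cfb, Serping1 and Masp1, with filled points for a limma adjusted p under 0.05. The filled points are Serping1 in R284S against vector (-1.45) and against hSTING (-1.85), and Masp1 in N154S against vector (1.26).

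The mean signal of the 8 fibroblast markers also varied between lines, at 10.68 and 10.60 in vector, 10.47 and 10.22 in hSTING, 10.06 and 9.78 in N154S and 9.75 and 9.74 in R284S cells, control first. Of these markers, the collagen genes Col3a1 and Col1a1, and Thy1, were lowest on both R284S arrays. There they read 6.61 and 6.70, 10.16 and 10.19, and 9.72 and 9.67. On the other 6 arrays they read 7.33 to 9.05, 10.47 to 11.53 and 9.82 to 10.74. Fn1 went the other way and was highest on both R284S arrays, at 12.09 and 12.15. Pdgfra, Pdgfrb and Vim were not lowest on both, and Col1a2 tied with N154S with dsDNA at 10.12. In bulk RNA, fewer cells that express a gene and less of its RNA per cell cannot be told apart. The macrophage marker mean was between 4.17 and 4.38 in R284S and between 3.98 and 4.2 on the other arrays, and the part of either marker list in these results was not tested.

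Serping1 was set beside genes of the interferon response, since interferons are known to raise it. The cause of its lower signal in R284S cells was not tested. Irf7, the transcription factor that amplifies the interferon response, read 5.27 in vector, 9.72 in hSTING, 11.02 in N154S and 9.66 in R284S control cells, and Stat2, a subunit of the interferon-activated factor, 5.74, 8.74, 9.51 and 9.26. Both were higher in R284S than in vector control cells, by 4.39 and 3.52, where Serping1 differed by -1.42. The next measured protein-coding gene after Serping1 in the RefSeq order of chromosome 2 is Ube2l6, the conjugating enzyme of the Isg15 pathway. It read 5.81 in vector, 7.89 in hSTING, 8.65 in N154S and 7.80 in R284S control cells, so that these neighbours differed from vector cells in opposite directions in R284S cells, by 1.99 and -1.42.

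C1ra encodes the protease C1r, the first to be activated in the classical pathway. Its control signals were 4.72 in vector, 4.78 in hSTING, 5.19 in N154S and 4.34 in R284S cells, and with dsDNA 4.15, 4.71, 4.69 and 4.12. N154S control cells were the highest, and both R284S arrays and vector with dsDNA were below the median. In the fit C1ra was at -0.71 (SE 0.16) in R284S against N154S cells, with a limma adjusted p of 0.493, and at 0.51 (SE 0.16) in N154S against vector cells, with a limma adjusted p of 0.206. With signals below their array's median set to it, these differences were -0.48 and 0.37. With dsDNA it read 0.57 lower in vector, 0.07 lower in hSTING, 0.50 lower in N154S and 0.22 lower in R284S cells. The effect of dsDNA over the 4 constructs was -0.34 (SE 0.11, limma adjusted p = 0.448). Both R284S signals lay below the median and have no order, and the hSTING difference was smaller than the gene's residual SD of 0.166.

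C1s1 encodes C1s, the protease that C1r activates, and C4b encodes the C4 protein that C1s cuts. C1s1 read 3.38, 3.08, 3.0 and 2.73 in vector, hSTING, N154S and R284S control cells and 2.65, 3.57, 3.06 and 3.33 with dsDNA. A second C1s1 probe set read between 2.41 and 3.28. C4b read 3.38, 4.23, 3.88 and 3.53 in control cells and 4.01, 4.05, 3.92 and 3.88 with dsDNA. Neither gene reached the median on any array, so these signals have no order and no fold is given. C4b, C1ra and C1s1 have near-identical copies, C4a, C1rb and C1s2, whose transcripts could share their probes.

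Promoter windows of 300 bases, 250 before to 50 after the gene's start, were taken from RefSeq on GRCm38.p6. Of the 7 listed genes 3 had an entry, and C4b, Cfb, C2 and Serping1 did not. The windows of C1ra and C1s1 are shown because these adjacent genes of chromosome 6 encode partner proteases and read differently on the arrays, C1ra around the median and C1s1 below it. The capitals mark matches to the motifs searched on both strands, which were the interferon-stimulated response element core (GAAA, any 2 bases, GAAA), the STAT site core TTCNNNGAA, the C/EBP core TTGCNNAA and the NF-kB motif.
C1ra, chr6:124512371-124512670, plus strand: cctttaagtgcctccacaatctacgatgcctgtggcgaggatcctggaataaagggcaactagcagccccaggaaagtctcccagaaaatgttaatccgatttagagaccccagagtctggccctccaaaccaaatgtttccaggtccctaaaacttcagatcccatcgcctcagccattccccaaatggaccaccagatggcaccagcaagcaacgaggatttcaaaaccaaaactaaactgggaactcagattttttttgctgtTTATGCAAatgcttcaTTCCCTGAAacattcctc
C1s1, chr6:124542310-124542609, minus strand: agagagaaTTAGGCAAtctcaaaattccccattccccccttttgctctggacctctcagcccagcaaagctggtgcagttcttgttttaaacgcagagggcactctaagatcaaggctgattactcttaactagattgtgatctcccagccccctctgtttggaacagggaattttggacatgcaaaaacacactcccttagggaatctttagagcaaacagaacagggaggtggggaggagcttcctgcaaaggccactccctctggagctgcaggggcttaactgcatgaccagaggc

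The C1ra window held a match to the STAT core, TTCCCTGAA, and a match to the C/EBP core read on the opposite strand of the window, TTATGCAA, both after the annotated start. The C1s1 window held a C/EBP match read on its opposite strand, TTAGGCAA. The second RefSeq window of C1s1, chr6:124542272-124542571, overlaps it and held no match to any of the motifs. Of the 32851 promoter windows in the RefSeq table, 8.3% held the STAT core, 10.8% the C/EBP core, 3.44% the interferon-stimulated response element core and 4.51% the NF-kB motif. The matches do not overlap each other and are descriptions of the letters in these windows.

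Over the 4 constructs, dsDNA changed 0 of the 6 complement genes in limma, with 1 at an unadjusted p under 0.05, and 0.0% of named genes passed, with 2394 of them at an unadjusted p under 0.05. When limma's variances were moderated with a trend and robustly, 4 genes passed and 0 of the 6 complement genes did. The difference between the dsDNA effect in the 3 STING lines and that in the vector line did not pass for any of the 6 either, with 0.0% of named genes passing, and 2 of the 6 genes and 798 of all genes at an unadjusted p under 0.05. For C2 this difference was 1.35 (SE 0.39, limma adjusted p = 0.994), with the dim vector signal of 2.89 behind it. Between N154S and hSTING cells over both treatments 0 of the 6 genes passed in limma, 0 had an unadjusted p under 0.05, and 0.0% of named genes passed, with 1974 at an unadjusted p under 0.05. In control cells of these lines 0 of 6 differed 2-fold, against 0.753% of named genes. The differences of N154S from hSTING control cells were 0.80 for Cfb, 0.81 for C2, 0.41 for C1ra and 0.10 for Serping1.

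Among the 6 genes themselves, the pattern of Cfb over the 8 arrays was closest to that of C2, with a Pearson r of 0.80. C1ra and C2 had an r of 0.74 and C1ra and Serping1 one of 0.65, and Cfb and Serping1 had an r of 0.30. These values describe 8 arrays that come in pairs of the same line, and dim signals enter them. In the RefSeq order of chromosome 17, C4b, Cfb and C2 lie in one stretch. The 5 measured protein-coding genes between C4b and Cfb are Cyp21a1, Stk19, Dxo, Skiv2l and Nelfe, and their signals had ranges between 0.26 and 0.55 over the 8 arrays, where Cfb had 2.18 and C2 had 2.52. The lowest Cfb and C2 signals, 3.79 and 2.89 on vector arrays, were below the median, so both ranges rest in part on dim signals. The dim C4b had a range of 0.85.

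Each gene was also matched by Pearson r over the 8 arrays to 1365 other genes with a range of at least 1 and a mean at or above the median gene. The like genes were chosen on these same arrays. A like pattern in them follows from the choice and is not a further result. Cfb was most like Mndal, Ifi207 and Ifit3b, each with an r of 0.995. All 3 are known as interferon-induced genes, and between N154S and vector control cells they differed by 2.93, 2.62 and 3.65, against 1.48 for Cfb. Mndal, Ifi207 and Ifit3b belong to families of near-identical genes, so their symbols are uncertain. C2 was most like the stress transcription factor Ddit3 (r = 0.948), the receptor gene Kdr (0.947) and Phf11d (0.89).

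Serping1 was most like Clca3a1 (r = 0.977), the eosinophil-attracting chemokine Ccl11 (0.958) and Islr (0.956). In control cells these 3 read 1.27, 1.10 and 1.37 lower in R284S than in vector cells, and differed by 0.00, 0.07 and -0.11 between N154S and vector cells. These likenesses to Serping1 follow from the choice by r over the same arrays. C1ra was most like the sialyltransferase St3gal6 (r = 0.958), 2700038G22Rik (0.928) and the secreted factor Ndnf (0.86). The closest values for the dim genes were lower, at 0.685 for C4b with Tet2 and 0.753 for C1s1 with Olfr584.

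**Figure D4:**
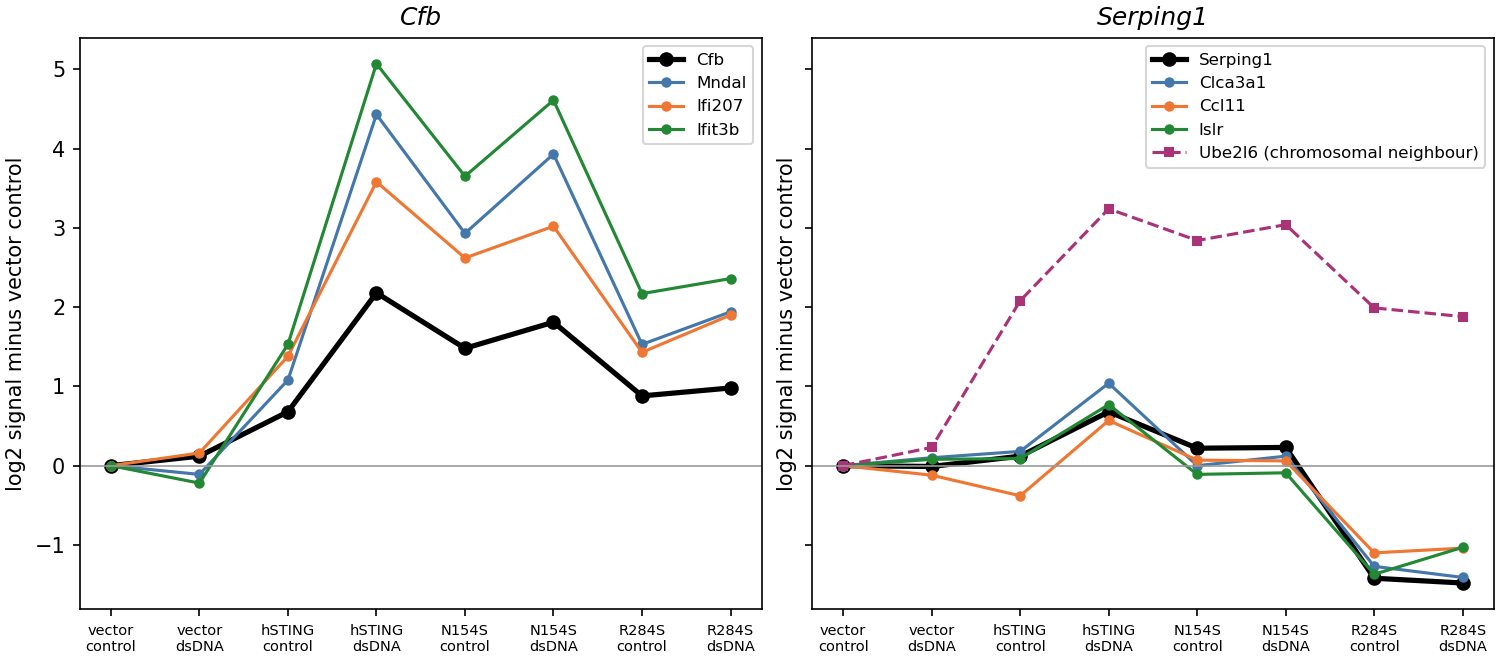
Log2 signal minus that of the vector control array (y axis) on the 8 arrays (x axis) for Cfb and Serping1 (black) with the 3 genes of highest Pearson r, and for Ube2l6, the neighbour of Serping1 (dashed). Cfb and its 3 closest genes are highest in hSTING with dsDNA, and Serping1 and its 3 closest genes are lowest in R284S cells, where Ube2l6 is above vector cells by 1.99 without dsDNA. The closest genes were chosen by r on these same 8 arrays, so their like patterns follow from the choice.

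The rest of the complement system was read from a list of 50 symbols, of which 46 were measured. The others were not analysed here under the listed symbol, and C5 is annotated under its other symbol Hc. Of the 46 genes, 32 were below the median on all 8 arrays, among them C1qa, C1qb and C1qc, which encode the recognition subunit that carries C1r and C1s, and all 6 genes of the membrane attack complex on the list. The 9 genes above it on all arrays included the scavenger receptor Colec12, with a mean of 9.95, C1qbp with 9.51, the lectin pathway protease gene Masp1 with 7.36, the membrane regulator Cd55 with 7.06 and its relative Cr1l with 6.91. Colec12 had a range of 0.24, C1qbp one of 0.27 and Cr1l one of 0.30 over the 8 arrays, and Cd55 one of 0.96.

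Masp1 was the 1 gene of this list that passed in any of the limma comparisons. It read 6.93 in vector, 7.19 in hSTING, 8.23 in N154S and 7.53 in R284S control cells, and 6.70, 6.81, 7.92 and 7.55 with dsDNA. Both N154S arrays were the highest. Masp1 was higher by 1.26 (SE 0.14, limma adjusted p = 0.0118) in N154S than in vector cells, the 1 of 46 genes that passed, while 1.32% of named genes passed. In R284S against vector cells it was at 0.72 (SE 0.14, limma adjusted p = 0.0541), and it passed there with trended, robust moderation (adjusted p = 0.0132), among genes of at least median mean signal (adjusted p = 0.0246) and without the hSTING pair of arrays (adjusted p = 0.0492). These were 3 of 7 alternatives, and the highest limma adjusted p among the 7 was 0.136. In N154S against hSTING cells Masp1 was at 1.07 (SE 0.14, limma adjusted p = 0.107). It passed there in 1 of 7 alternatives, that with trended, robust moderation (adjusted p = 0.0133), and the highest limma adjusted p was 0.241. In control cells it was also the 1 of 46 list genes counted as different between N154S and vector, at 2.462-fold. Of named genes, 1.01% were counted as higher there. It was likewise the 1 of 46 between N154S and hSTING control cells, at 2.056-fold, where 0.753% of named genes differed 2-fold either way.

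C3ar1, the receptor for the C3a fragment, read 3.77, 4.54, 4.65 and 4.31 in vector, hSTING, N154S and R284S control cells, and 4.03, 5.38, 4.48 and 4.24 with dsDNA. The hSTING array with dsDNA was the highest. With dsDNA, C3ar1 was at least 1.945-fold higher in hSTING than in vector cells. It was the 1 of 46 list genes counted as higher there, where 2.16% of named genes were. The vector signal was below the median, so this count rests on a dim signal. No other list gene passed in limma against vector cells or was counted as different between control arrays, and the list's median difference from vector control cells was -0.04 in hSTING, 0.03 in N154S and -0.06 in R284S cells. At an unadjusted p under 0.05, 6, 8 and 6 of the 46 genes differed from vector cells in hSTING, N154S and R284S cells in limma, as did 9.28%, 14.9% and 14.3% of named genes.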

How the data were processed

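Total RNA of 8 samples (4 constructs, control or dsDNA for 9 h, 1 array each) was labelled with GeneChip WT PLUS chemistry for Affymetrix arrays, per the labels' protocols. The deposited values are log2 signals. They come from Affymetrix Expression Console 1.3.1.187, by the submitters' processing notes; which of its algorithms was run is not stated there. Array medians over the 41345 probe sets lay between 3.79 and 3.85, so the arrays had been brought to a like scale, which would hide a shift of all genes at once. Pearson's r between arrays was 0.973 to 0.989. For arrays, their number limits the precision.

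Of the probe sets, 23521 had 1 gene symbol, 1814 several and 16010 were not listed in the platform annotation. The first kind gave 22180 genes, by the probe set with the highest mean. limma 3.58.1 in R 4.3.3 fitted construct and treatment (3 residual and 4.03 prior degrees of freedom), and a second fit added a dsDNA term for the STING lines. The fit was first tested on simulated data. The members and lists were chosen with earlier results of these data known. Named were the members, complement list genes that passed or were counted as different, the 5 brightest of them, a reference panel and the 3 genes most like each member. Alternatives were other scalings, probe set and dimness rules, eBayes settings, and leaving out each line's pair of arrays.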

Additional observations from a re-analysis of the deposited data

How the results depend on the processing

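Among control arrays and between the 2 arrays of a line, the differences of Cfb, C2 and Serping1 that counted as 2-fold kept their direction and stayed past it under quantile normalization and median centring. These genes have a single probe set, so the mean over probe sets could not change them. Without a minimum on the brighter array, 1 complement gene (C2) differed between the vector arrays in place of 0, and all genes that differed numbered 91 in place of 41 there and 59 in place of 15 between the R284S arrays. For the fits, leaving out 1 other line's pair of arrays gave 0 to 2 complement genes past 0.05 for N154S against vector (0 with all arrays), 0 to 2 for R284S against vector (1 with all), and 0 to 1 for R284S against N154S (0 with all). Among genes of at least median mean signal, 1 passed for N154S against vector, which was Cfb (adjusted p = 0.04996, with 0.00385 to 0.104 over its alternatives), and with trended, robust moderation 1 passed for R284S against N154S, which was Serping1 (adjusted p = 0.00551). Leaving out the hSTING pair also brought Serping1 past it there (adjusted p = 0.0244). Over its alternatives, the adjusted p of Serping1 ran from 0.00106 to 0.0521 for R284S against vector and from 0.000476 to 0.0457 against hSTING.

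The counts of all genes past 0.05 changed more. Leaving out a pair gave 0 to 47 for hSTING against vector, 178 to 594 for N154S against vector, 129 to 654 for R284S against vector, 47 to 79 for R284S against hSTING, 0 to 7 for R284S against N154S and 0 to 1 for dsDNA. With trended, robust moderation they were 726 for N154S and 854 for R284S against vector, 125 for N154S and 584 for R284S against hSTING, 12 for R284S against N154S and 4 for dsDNA. The filter on dim genes gave 662, 761, 16 and 455 for the first 4 of these, and median centring 35 for hSTING against vector and 1 for dsDNA. The dsDNA effect turned sign for C2 without the vector pair (leaving out each pair gave -0.60 to 0.03) and for Serping1 without the hSTING pair (-0.02 to 0.19). Its difference between the STING lines and vector turned for Serping1 without the hSTING pair (-0.01 to 0.29), and for Masp1 with centring (-0.02) and without the R284S pair (-0.12 to 0.09). None of these 5 values passed. The cause of these changes was not tested. The dim genes C4b and C1s1 were below the median on every array, and their signal over background was not measured.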
